A study of Mus musculus with 8 samples.

Results

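The distal convoluted tubule is the short stretch of the nephron after the thick ascending limb, and 10 of its transport genes are described here across 8 mouse kidneys. They were taken as the rows of the series-wide count table whose Ensembl ID carries one of 10 symbols, and all 10 were found among 49315 gene IDs. The genes are Slc12a3, Wnk4, Klhl3 and Kcnj10 for sodium chloride, Trpv5, Calb1, S100g, Pvalb and Slc8a1 for calcium, and Trpm6 for magnesium. Messenger RNA was sequenced from 4 frozen kidney samples labelled control and 4 labelled conditional knockout, in a series on loss of Kdm1a, which encodes LSD1, an enzyme that demethylates histone H3. The recombinase, the floxed allele, the age and the sex of the animals, and what the controls carry, are not given in the sources used here. The labels number the kidneys and do not say that each came from a separate animal, so p values measure the spread between these samples.

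In this segment sodium and chloride enter through the cotransporter NCC, encoded by Slc12a3. NCC is switched on by kinases that WNK4 controls, and WNK4 is itself marked for degradation by KLHL3, an adaptor of a ubiquitin ligase. Kcnj10 encodes a potassium channel of the blood-side membrane that sets the membrane voltage. Calcium enters from the urine through TRPV5, is carried across the cell by calcium-binding proteins (calbindin-D28K from Calb1, calbindin-D9k from S100g, parvalbumin from Pvalb) and leaves through the sodium-calcium exchanger of Slc8a1. Magnesium enters through TRPM6. Several of these genes are also active in the connecting tubule that follows.

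The 3 genes with the largest differences between genotypes were Slc12a3, Trpv5 and S100g, and all lay lower in the knockout. The 250 bases before the annotated start of each are shown because these members moved together. They come from RefSeq (GRCm38.p6), which held a window for 9 of the 10 genes. They run from 5′ to 3′ on the strand of the gene, and capitals mark matches to the motifs described after them.
Slc12a3, chr8:94328958-94329207, plus strand: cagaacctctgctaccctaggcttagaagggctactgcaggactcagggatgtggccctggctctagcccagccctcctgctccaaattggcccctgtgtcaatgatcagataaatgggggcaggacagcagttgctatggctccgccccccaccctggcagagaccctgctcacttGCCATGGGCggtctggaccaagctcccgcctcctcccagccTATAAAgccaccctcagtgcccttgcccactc
Trpv5, chr6:41680724-41680973, minus strand: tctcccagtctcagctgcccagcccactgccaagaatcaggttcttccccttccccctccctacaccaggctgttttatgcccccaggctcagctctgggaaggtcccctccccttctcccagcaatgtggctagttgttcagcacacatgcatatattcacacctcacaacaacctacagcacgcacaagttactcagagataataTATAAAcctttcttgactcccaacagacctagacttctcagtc
S100g, chrX:162964600-162964849, minus strand: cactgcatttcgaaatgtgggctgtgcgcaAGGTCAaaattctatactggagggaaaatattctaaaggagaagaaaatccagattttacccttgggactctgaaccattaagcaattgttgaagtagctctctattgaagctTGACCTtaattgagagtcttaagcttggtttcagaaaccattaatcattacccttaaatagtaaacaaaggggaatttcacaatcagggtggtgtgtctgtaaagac

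Both strands of the full windows, which reach 250 bases before and 50 bases after the start, were searched for 4 motifs that do not overlap one another in these 3 windows. The motif TATAAA, the spelling of the TATA box, was matched in all 3 of these genes and in none of the other windows of the set. Of 32851 windows of the same length, 13.6% held a match. The 3 genes were picked by their difference in these data, so this contrast is not a test. Kcnj10 and Klhl3, which were also lower in the knockout, had no match. The match began 32 bases before the RefSeq start in Slc12a3, 43 bases before it in Trpv5 and at the start itself in S100g. In S100g it thus lies within the annotated transcript and outside the stretch shown. The deposited gene of Trpv5, on the minus strand, begins at 41680769, within the stretch shown. The match in Trpv5 thus lies before the RefSeq start but inside the deposited gene. The nuclear receptor core motif AGGTCA (16.3% of windows) was matched at 2 places in S100g. The AP-2 site GCCNNNGGC (16.6% of windows) was matched in Slc12a3, Pvalb, Trpm6, Wnk4 and Kcnj10. The HNF1 core motif GTTAAT (7.10% of windows) had no match in the set. A match describes letters only.

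The libraries held 19524945 to 28544511 counts. Over all genes, 2751 of 18485 tested (14.9%) passed an adjusted p of 0.05 in edgeR's quasi-likelihood test, 1529 lower (8.27%) and 1222 higher (6.61%) in the knockout. With 1 library removed at a time the total ran from 153, without knockout replicate 4, to 7084, without control replicate 2. This test, with Benjamini-Hochberg adjustment over all genes tested, gives every adjusted p below, and "called" means an adjusted p under 0.05. Levels are counts per 1000000 counts of the library (CPM), with library sizes scaled by the trimmed mean of M values (TMM). Kdm1a itself went from 113 ± 4.77 to 93.6 ± 1.88 CPM (mean ± SD, n = 4 each; log2 fold change −0.27, SE 0.05, adjusted p 0.0194), and its transcript thus remained in every knockout kidney. This call held in 3 of the 8 fits with a library removed, the highest adjusted p being 0.0765 without knockout replicate 4. Counts cover all exons of the gene, so transcripts lacking a deleted exon are included. Xist and Y-linked transcripts divided the libraries across genotypes: 3 controls and 2 knockouts (replicates 2 and 3) carried Y-linked transcripts, while control replicate 2 and knockout replicates 1 and 4 did not. Adrenal transcripts were high in knockout replicates 1 and 4 (12 markers, summed level 2803 and 429 CPM), at 156.8 CPM in control replicate 4 and at 20.56 to 24.48 CPM elsewhere. Control replicate 2 stood apart from the other controls. Over the tested genes, the chi-square of counts per degree of freedom between this library and each knockout was 17.7 to 22.1, and between it and each other control 34.7 to 61.0. It was the lowest control for 7 of the 9 members tested, and knockout replicate 3 was the highest knockout for 5 of them. Without control replicate 2 the log2 fold changes were −3.07 for Slc12a3, −2.95 for Trpv5, −2.66 for S100g, −1.59 for Kcnj10 and −1.19 for Klhl3, and all 5 were called.

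Of the 10 genes, 9 passed the filter on low counts, each with at least 1.58 CPM in every library. Among these 9, 5 were called lower, 0 were called higher and 4 were not called. Over all 18485 genes tested, 8.27% were called lower and 6.61% higher. Removing control replicates 1 to 4 in turn left 3, 6, 1 and 3 members called lower, and removing knockout replicates 1 to 4 left 2, 2, 5 and 1. The counts over all genes moved too, with 239, 3598, 174 and 348 called lower without control replicates 1 to 4. Without knockout replicates 1 to 4 they were 211, 278, 1742 and 43. The median log2 fold change of the 9 members was −0.985, beside 0.0044 over all genes tested. The groups did not overlap for 4 genes that were lower and 1 that was higher, where 9.58% and 9.29% of all genes tested did so. In bulk tissue, fewer cells of a type and less RNA per cell cannot be told apart.

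**Figure D1:**
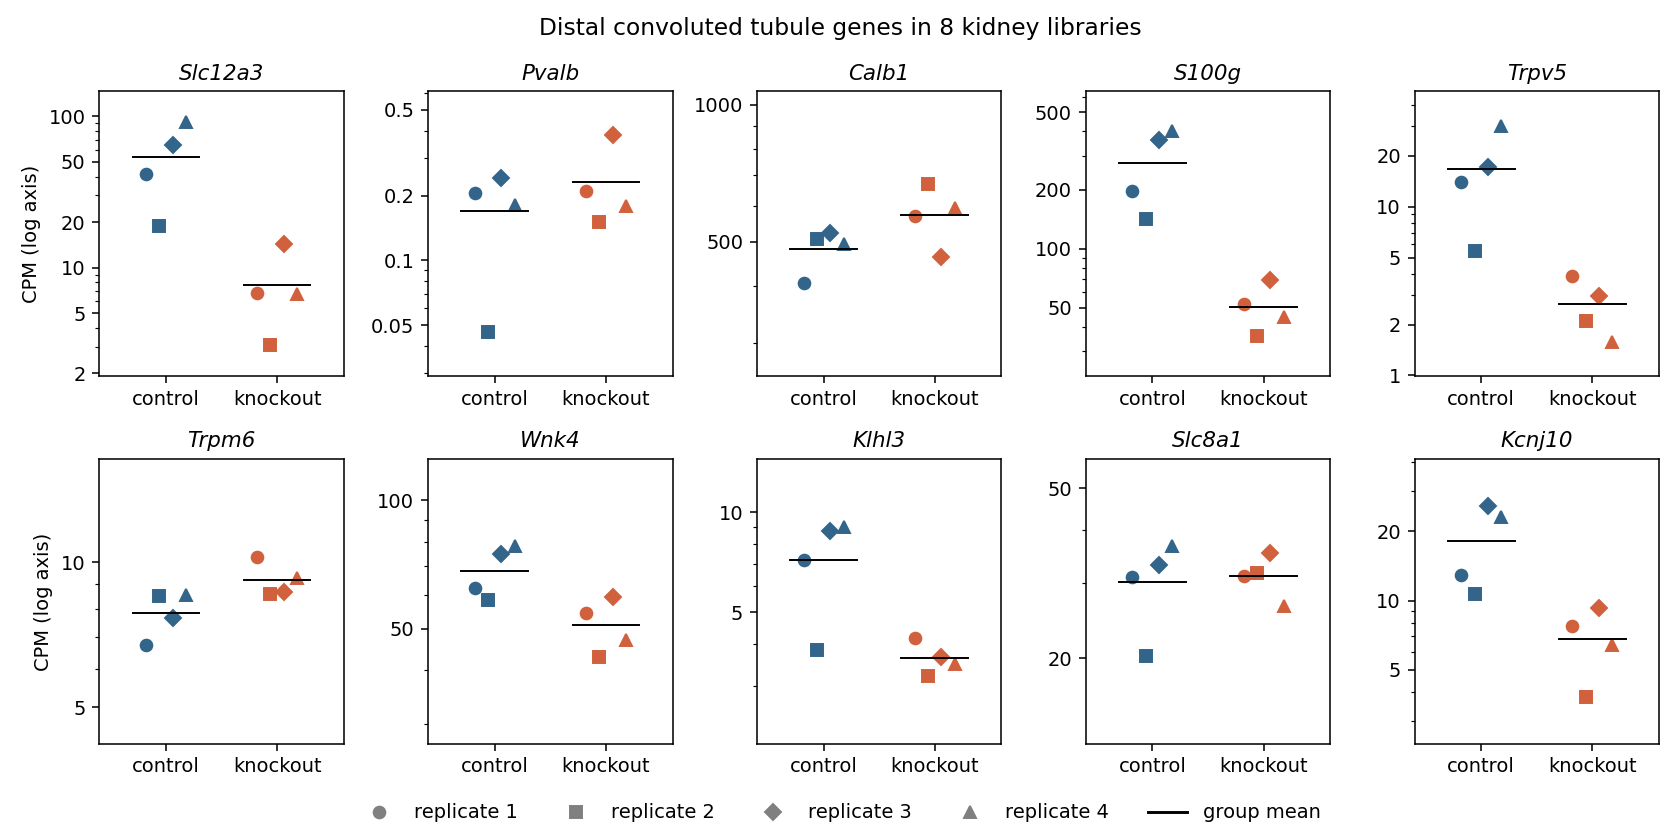
Level of each of the 10 genes in CPM (log axes, a range of its own per panel) in 4 control and 4 knockout libraries. Symbols give the replicate number and the line the group mean. For Slc12a3, S100g, Trpv5 and Kcnj10 every knockout lies below every control, while Calb1 and Slc8a1 overlap.

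Slc12a3 (ENSMUSG00000031766, chromosome 8, 94329201 to 94366214, plus strand) is the defining gene of the segment. Its level was 41.7, 18.9, 64.5 and 91.3 CPM in control replicates 1 to 4 and 6.76, 3.06, 14.3 and 6.73 CPM in knockout replicates 1 to 4. Every knockout lay below every control, at 5.66% to 26.4% of the control mean. The controls themselves spanned 4.84-fold and the knockouts 4.66-fold. The means were 54.1 ± 31.0 and 7.70 ± 4.70 CPM, and the log2 fold change was −2.80 (SE 0.54, adjusted p 0.0190). The gene went from 65.8 to 8.66 CPM in the 5 libraries with Y-linked transcripts and from 18.9 to 6.74 CPM in the 3 without. The latter hold 1 control, replicate 2, so the contrast there was not tested. The call was lost without control replicate 3 (adjusted p 0.0594), knockout replicate 1 (0.05695) or knockout replicate 4 (0.0713), with log2 fold changes of −2.71, −2.74 and −2.71.

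The regulators of the cotransporter differed less. Wnk4 (ENSMUSG00000035112, chromosome 11, 101260567 to 101277409), the kinase gene upstream of NCC, stood at 62.2, 58.5, 74.6 and 78.0 CPM in controls and at 54.4, 43.1, 59.5 and 47.2 CPM in knockouts. Of the 4 knockouts 3 lay below the lowest control, and knockout replicate 3 lay just above it. The log2 fold change was −0.42 (SE 0.13, adjusted p 0.0543), which was not called. It was called without control replicate 2 (adjusted p 0.0151) or knockout replicate 3 (0.0366). An antisense gene, Gm11615, shares exon bases with Wnk4 and was at most 1.004 CPM in any library.

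Klhl3 (ENSMUSG00000014164, chromosome 13, 58004221 to 58113592, minus strand), the adaptor that recruits WNK kinases to the ubiquitin ligase, stood at 7.17, 3.85, 8.76 and 9.04 CPM in controls and at 4.18, 3.21, 3.67 and 3.49 CPM in knockouts. Knockout replicate 1 lay above control replicate 2, so the groups overlapped. The log2 fold change was −0.99 (SE 0.26, adjusted p 0.0371). The difference was found among libraries with Y-linked transcripts (8.32 against 3.44 CPM) and not among those without, where the means were 3.85 and 3.83 CPM; with 1 control there, this contrast was not tested. When libraries were dropped one at a time, only the fit without control replicate 2 kept the call. The adjusted p was 0.0914, 0.109 and 0.102 without control replicates 1, 3 and 4, and 0.0749, 0.0934, 0.0558 and 0.105 without knockout replicates 1 to 4.

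Kcnj10 (ENSMUSG00000044708, chromosome 1, 172341210 to 172374085, plus strand) forms the basolateral potassium channel together with the product of Kcnj16. It stood at 12.9, 10.7, 25.8 and 23.1 CPM in controls and at 7.73, 3.82, 9.24 and 6.44 CPM in knockouts, with no overlap. The means were 18.1 ± 7.45 and 6.81 ± 2.30 CPM, and the log2 fold change was −1.41 (SE 0.34, adjusted p 0.0307). The partner subunit Kcnj16 changed by −1.48 (SE 0.34, adjusted p 0.0275). Within libraries, the level of Kcnj10 per kilobase was 0.133 to 0.213 times that of Kcnj16 in controls and 0.165 to 0.213 times in knockouts, so the ratio of the 2 subunits overlapped fully. The call of Kcnj10 remained without control replicate 2 or knockout replicate 3. It was lost without control replicates 1, 3 or 4 (adjusted p 0.0584, 0.0907 and 0.0833) and without knockout replicates 1, 2 or 4 (0.0735, 0.0713 and 0.0938). With a covariate for Y-linked transcripts the adjusted p was 0.0589 for Kcnj10 and 0.0743 for Klhl3, and with one for adrenal transcripts it was 0.0628 and 0.0656, so neither was called. The log2 fold change was −1.30 for Kcnj10 and −0.86 for Klhl3 with the first covariate, and −1.53 and −1.11 with the second. Kcnj10 is also a gene of glia, whose markers lay at 11.95 to 23.04 CPM in sum in controls and 17.78 to 33.85 CPM in knockouts, higher for 6 of 6 tested and called for 0.

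On the calcium side the gene of the entry channel fell. Trpv5 (ENSMUSG00000036899, chromosome 6, 41652173 to 41680769, minus strand) was at 14.0, 5.47, 17.2 and 30.1 CPM in controls and at 3.89, 2.11, 2.98 and 1.58 CPM in knockouts. Every knockout was below every control, and control replicate 2 lay nearest to the knockouts. The means were 16.7 ± 10.2 and 2.64 ± 1.01 CPM, and the log2 fold change was −2.66 (SE 0.49, adjusted p 0.0172). The difference was 8.03-fold among libraries with Y-linked transcripts and 2.001-fold among those without, where replicate 2 is the only control. The call was lost without control replicate 3 (adjusted p 0.0516), knockout replicate 2 (0.0519) or knockout replicate 4 (0.0625). Trpv6, the neighbouring and related calcium channel gene, was at 7.05 to 11.4 CPM over all libraries and was not called (log2 fold change −0.16, adjusted p 0.488). Per kilobase, Trpv5 stood above Trpv6 in 3 of 4 controls, control replicate 2 being the exception at a ratio of 0.858, and in 0 of 4 knockouts (0.273 to 0.513). Reads that match both of these related genes are uncertain.

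Of the 3 genes of calcium-binding proteins, only S100g was called. S100g (ENSMUSG00000040808, chromosome X, 162961992 to 162964599, minus strand), calbindin-D9k, was at 197, 142, 361 and 399 CPM in controls and at 52.3, 35.7, 69.4 and 45.0 CPM in knockouts. Every knockout lay below every control, at 13.0% to 25.2% of the control mean. The means were 275 ± 124 and 50.6 ± 14.3 CPM, and the log2 fold change was −2.44 (SE 0.35, adjusted p 0.0101). S100g was the one member whose call survived the removal of any of the 8 libraries, the highest adjusted p being 0.0490 (without knockout replicate 4). It was 6.07-fold lower among libraries with Y-linked transcripts and 2.92-fold lower among those without, where replicate 2 is the only control. Ctps2, which spans S100g on the opposite strand without shared exon bases, was not called (log2 fold change 0.20, adjusted p 0.118).

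Calb1 (ENSMUSG00000028222, chromosome 4, 15881264 to 15908064, plus strand), calbindin-D28K, was at 405, 507, 523 and 494 CPM in controls and at 571, 669, 462 and 594 CPM in knockouts. Of the 4 knockouts 3 lay above all controls, and knockout replicate 3 lay among them. The log2 fold change was 0.25 (SE 0.12, adjusted p 0.168), which was not called. It was called higher without knockout replicate 3 (0.36, adjusted p 0.0480), the library in which Calb1 was lowest among knockouts. Per kilobase, S100g exceeded Calb1 in all 4 controls, by 2.83-fold to 8.15-fold, but in 1 of 4 knockouts, where the ratio ran from 0.539 to 1.52.

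Pvalb (ENSMUSG00000005716, chromosome 15, 78191114 to 78206400, minus strand), a marker of the early part of the segment, was close to the detection limit in both groups. It received 5, 1, 6 and 4 counts in control replicates 1 to 4 and 5, 3, 11 and 5 counts in knockouts, or 0.0464 to 0.381 CPM. It did not pass the filter, and with no filter its log2 fold change was 0.43 (adjusted p 0.686). A difference in Pvalb was not detectable at this depth. The counts were this low in controls as in knockouts, and whether they depend on the age of the animals, which is not given, was not tested. Fast muscle also uses Pvalb, and markers of skeletal muscle summed to 21.13 to 41.31 CPM in controls and 49.34 to 61.16 CPM in knockouts, with 2 of 7 tested called higher and Myh4 at no more than 0.0909 CPM; their part in the Pvalb counts was not tested.

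Slc8a1 (ENSMUSG00000054640, chromosome 17, 81388691 to 81649607, minus strand), the exit route for calcium, was at 31.1, 20.2, 33.1 and 36.6 CPM in controls and at 31.3, 31.7, 35.2 and 26.6 CPM in knockouts. The knockouts lay within the range of the controls. The log2 fold change was 0.04 (SE 0.17, adjusted p 0.871), and its sign changed without control replicate 2 (−0.11, adjusted p 0.434). Heart muscle also uses this gene, and 5 markers of it summed to 3.818 to 24.25 CPM in controls and 16.09 to 28.71 CPM in knockouts; their part was not tested.

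Trpm6 (ENSMUSG00000024727, chromosome 19, 18749983 to 18892510, plus strand), the magnesium entry channel, was at 6.72, 8.49, 7.67 and 8.54 CPM in controls and at 10.2, 8.58, 8.65 and 9.24 CPM in knockouts. Every knockout lay above every control, though by little. The log2 fold change was 0.22 (SE 0.13, adjusted p 0.235), and it was called in 0 of the 8 fits with a library removed. Per kilobase, Trpv5 stood above Trpm6 in all 4 controls (1.29-fold to 7.07-fold) and below it in all 4 knockouts (ratio 0.344 to 0.763). The 2 cation channels had thus changed places in the order of levels.

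**Figure D2:**
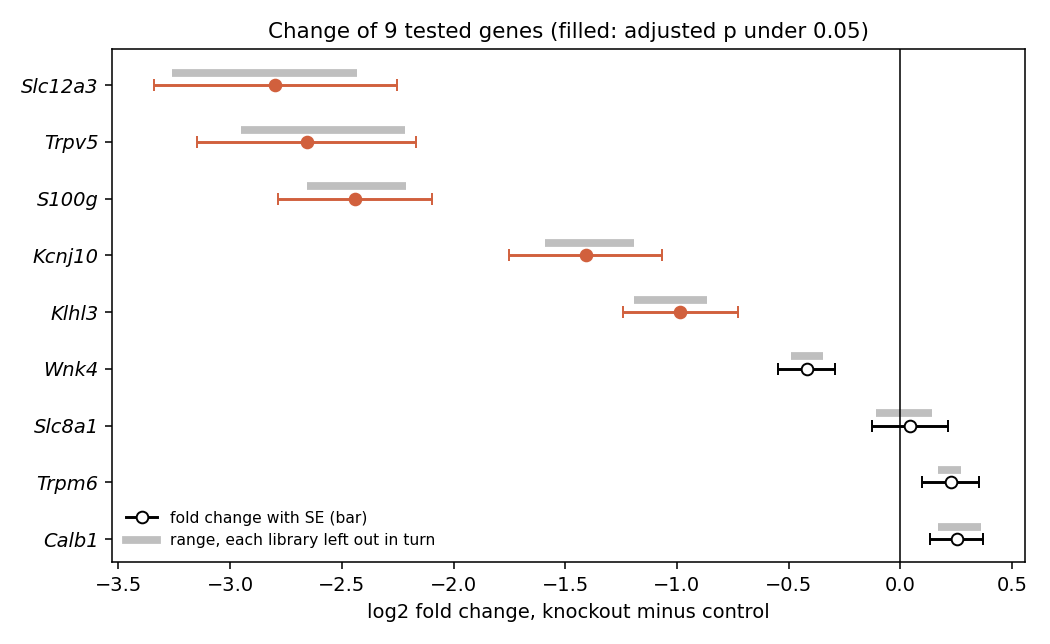
Log2 fold change of the 9 tested genes, knockout minus control (points, with SE as bars; filled where the adjusted p is under 0.05). Grey bars span the values with each library left out in turn. Slc12a3, Trpv5 and S100g lie between −2.80 and −2.44, and the grey bar of Slc8a1 crosses 0.

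Levels between genes were compared per kilobase of exon. In controls S100g was highest at 573 ± 259 CPM per kilobase, followed by Calb1 at 99.5 CPM per kilobase, and Wnk4 at 16.5. The range of Slc8a1 (6.89 to 12.5) overlapped those of Trpv5 (1.69 to 9.28) and Slc12a3 (1.70 to 8.21). These in turn overlapped Kcnj10 (1.98 to 4.77) and Klhl3 (1.16 to 2.72), and Klhl3 overlapped Trpm6 (1.03 to 1.31), so the order of these neighbours was not resolved. Pvalb (0.162) was last. In knockouts Calb1 (118 CPM per kilobase) and S100g (105) overlapped at the top, Wnk4 (12.3) and Slc8a1 (10.6) followed, and Trpm6 (1.41) came next, overlapped by Kcnj10 (0.706 to 1.71). Slc12a3 (0.275 to 1.28) overlapped Trpv5 (0.488 to 1.20), Kcnj10 and Klhl3 (0.965 to 1.26) there. The highest knockout value of Slc12a3 lay below the lowest of Trpm6 (1.32), whereas in controls every value of Slc12a3 lay above those of Trpm6. The deposited gene model of Slc8a1 has 2934 exon bases. On the minus strand it begins at 81649607, well downstream of the RefSeq start, so the value of Slc8a1 per kilobase depends on that model.

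**Figure D3:**
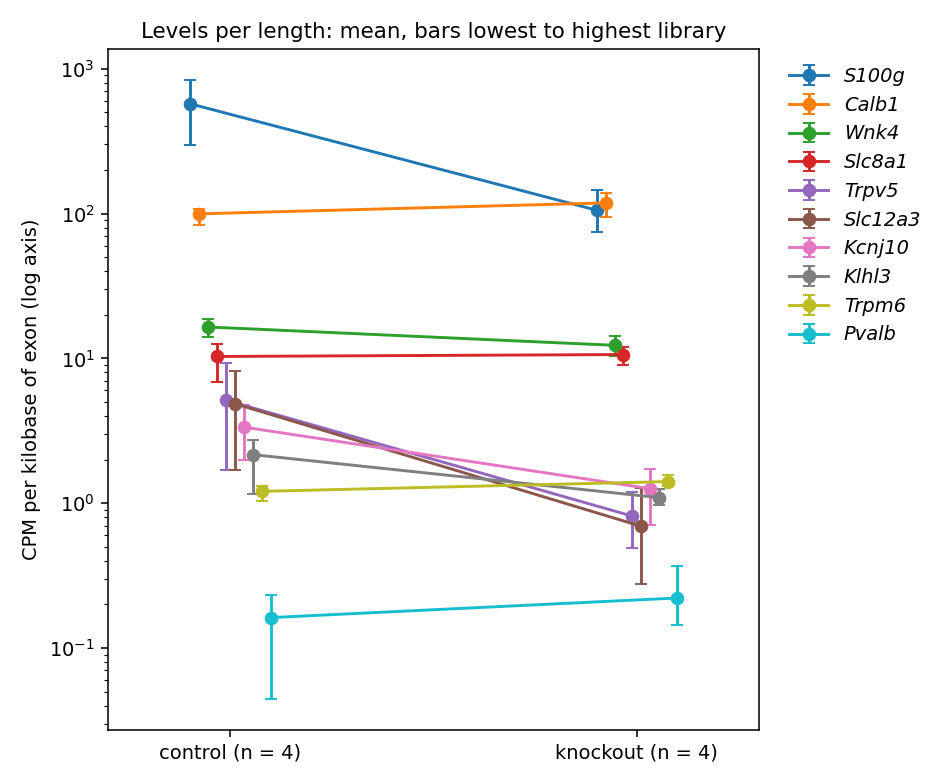
Mean level of the 10 genes per kilobase of exon in controls and knockouts (log axis, bars from the lowest to the highest of 4 libraries, points shifted sideways for legibility). The line of S100g meets that of Calb1 in the knockouts, and those of Slc12a3 and Trpv5 drop below that of Trpm6.

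Further genes of the same pathways were taken from lists chosen with earlier results of these data known. Of these 44 genes, 20 were called lower and 2 higher, where 8.27% and 6.61% of all genes tested were so called. The count of calls changed with each library removed: 3, 29, 2 and 3 were called lower without control replicates 1 to 4, and 2, 2, 22 and 1 without knockout replicates 1 to 4. Cyp24a1 was called in all 8 of these fits and Tmem52b in 7. Cab39 and Cab39l, given below, were not followed over these fits. The remaining called genes named from these lists kept their call in 4 or fewer. The sizes also moved over the 8 fits, with Kcnj16 at −1.73 to −1.28 and Kl at −2.60 to −1.90. The ranges were wider for Fxyd2 (−4.02 to −2.68) and Klk1 (−4.41 to −2.82), both lowest without knockout replicate 3. Of 17 other genes of sodium chloride transport and its control, 8 were called lower, 0 higher and 9 were not called (median log2 fold change −0.62). They include Kcnj16, given above, and Fxyd2, a subunit of the sodium pump (−3.03, SE 0.76, adjusted p 0.0330). Of the kinase genes, Wnk1 stood at −0.01 (adjusted p 0.923), Wnk3 at 0.01 (adjusted p 0.981), Oxsr1 at 0.04 (adjusted p 0.748) and Stk39, the gene of the kinase SPAK, at −0.43 (adjusted p 0.0829), and none of the 4 was called. Cab39 and Cab39l, whose products activate SPAK and its relative OSR1, were called lower, at −0.19 (adjusted p 0.04645, no overlap) and −0.62 (adjusted p 0.0377). Cul3, the scaffold of the KLHL3 ligase, stood at 0.02 (adjusted p 0.893).

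Of 9 other genes of distal calcium transport and its hormones, 4 were called lower, 1 higher and 4 were not called (median −1.35). The shares of all genes tested that were called lower and higher were 8.27% and 6.61%. Cyp24a1, which breaks down active vitamin D, went from 26.0, 8.16, 11.2 and 16.6 CPM in controls to 1.01, 0.151, 1.66 and 1.76 CPM in knockouts, with no overlap (−3.71, SE 0.58, adjusted p 0.0121). The co-receptor gene Kl changed by −2.30 (adjusted p 0.0227) and Klk1, the tissue kallikrein gene, by −3.14 (adjusted p 0.02585). Atp2b4, a calcium pump gene, was called higher (0.45, SE 0.10, adjusted p 0.0245), whereas the pump gene Atp2b1 was not called (−0.05, adjusted p 0.727). The vitamin D receptor gene Vdr was not called (−0.67, adjusted p 0.0550).

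Of 12 other genes of renal magnesium transport, 4 were called lower, 1 higher and 7 were not called (median −0.32). Here too the shares of all genes tested were 8.27% called lower and 6.61% called higher. Cldn16, a claudin of the thick ascending limb, changed by −2.44 (adjusted p 0.0350), Pcbd1, a cofactor of HNF1 factors, by −0.92 (adjusted p 0.0281), and Cnnm2, a gene of basolateral magnesium handling, by −0.91 (adjusted p 0.0342). Egfr, the receptor of the magnesium-retaining hormone EGF, was called higher (0.80, SE 0.20, adjusted p 0.0322). Trpm7, the partner of Trpm6, was not called (0.07, adjusted p 0.532). Of 6 other marker or factor genes of the segment, 4 were called lower and 2 were not called (median −1.77). Tmem52b went from 65.3, 48.5, 102 and 117 CPM to 21.7, 11.6, 24.8 and 17.9 CPM (−2.13, SE 0.31, adjusted p 0.0109), Pgam2 changed by −1.83 (adjusted p 0.0192) and Sall3, a transcription factor gene, by −1.22 (adjusted p 0.0418). Tfap2b, a factor gene of distal nephron identity, was not called (−0.27, adjusted p 0.338).

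**Figure D4:**
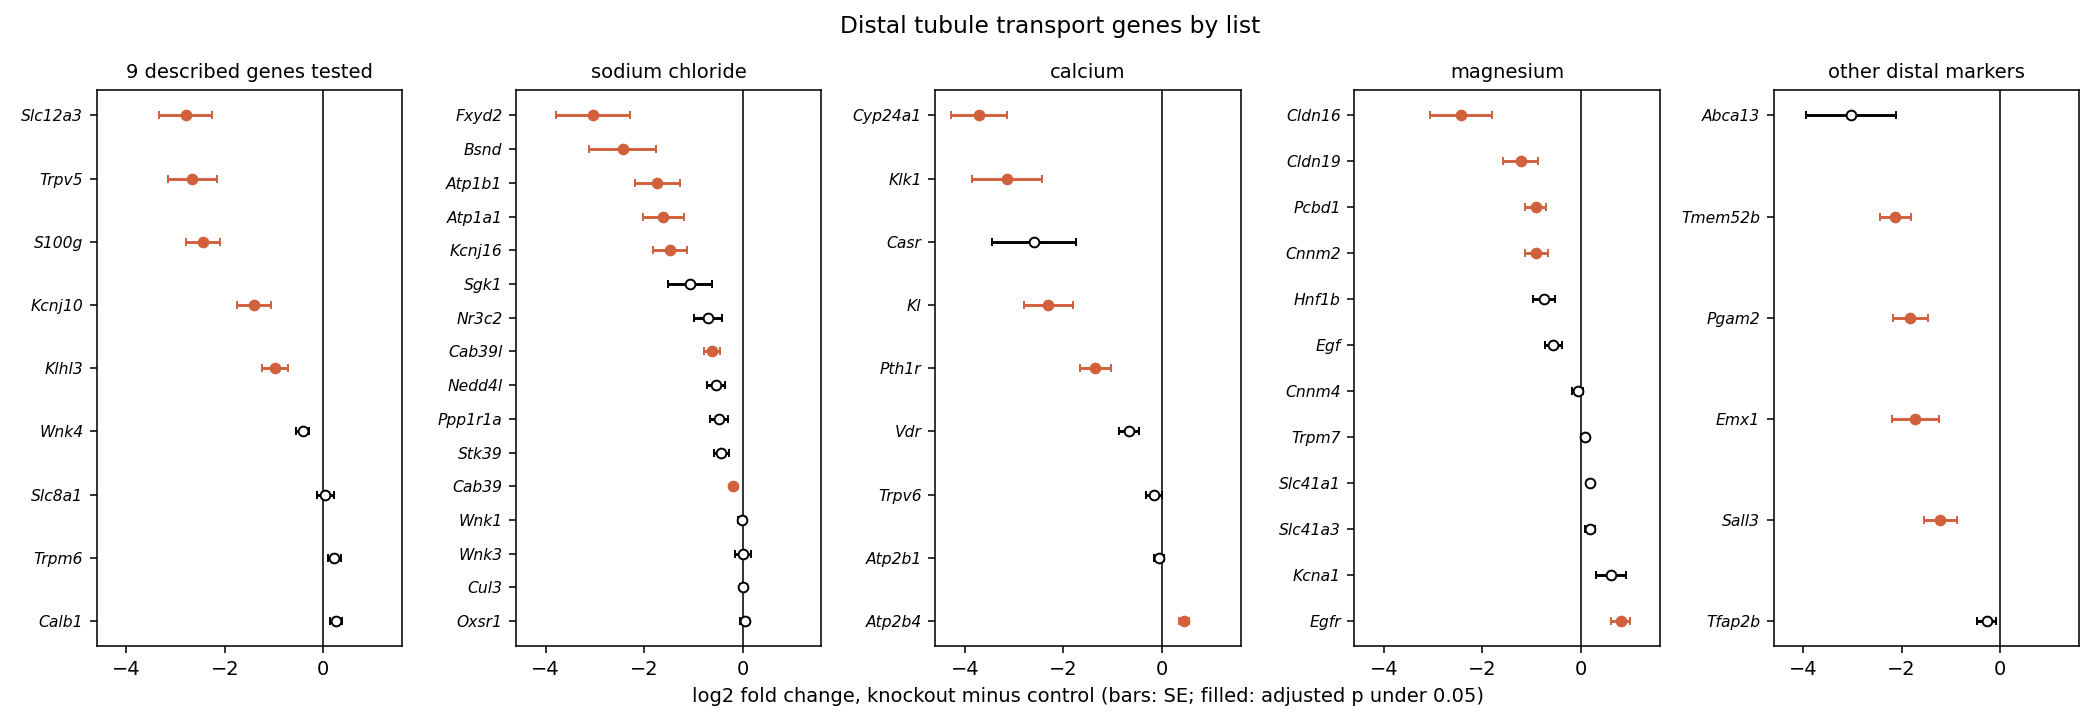
Log2 fold change, knockout minus control, with SE, of the described genes that were tested and of the reported genes of 4 related lists (filled points have an adjusted p under 0.05). Filled points lie mostly on the negative side, and Atp2b4 (0.45) and Egfr (0.80) on the positive side.

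Markers of several other kidney cell types were also lower in the knockouts, and their part in the results was not tested. The thick ascending limb markers, 6 genes, summed to 257.8 to 1167 CPM in controls and 27.16 to 348.8 CPM in knockouts, with 5 called lower, and the 7 proximal tubule markers were all called lower (348.6 to 1398 against 65.31 to 294.2 CPM). Podocyte markers, of the glomerulus, were lower with no overlap for 4 of 4, with 2 called (183.7 to 409.8 against 71.18 to 172.1 CPM in sum). Of all genes tested, 8.27% were called lower, 6.61% were called higher and 9.58% lay lower with no overlap. Intercalated cell markers had a log2 fold change below 0 for 6 of 6 (median −1.45) with 0 called, and endothelial markers for 5 of 5 (median −0.45) with 1 called. Of 7 principal cell markers tested, 5 had a log2 fold change below 0, 0 were called lower and 2 were called higher. In sum the principal cell markers stood at 492.5 to 1189 CPM in controls and at 345, 275, 989.4 and 340.5 CPM in knockout replicates 1 to 4. Knockout replicate 3 also had the highest knockout sum of proximal tubule, thick ascending limb, podocyte, intercalated cell and endothelial markers. General tubule markers were called for 0 of 7, with 4 below 0 and 3 above (median log2 fold change −0.196). Cdh16 stood at −0.74 (adjusted p 0.124) and Krt8 at −0.65 (adjusted p 0.165). Epcam stood at 0.03 (adjusted p 0.745) and Pax8 at 0.03 (adjusted p 0.762). Relative to the thick ascending limb cotransporter gene Slc12a1, Slc12a3 per kilobase stood at 0.0617 to 0.0813 in controls and at 0.147, 0.565, 0.0317 and 0.0929 in knockout replicates 1 to 4. The knockout ratios thus lay on both sides of the controls. Without knockout replicates 1 and 4 the log2 fold changes were −2.62 for Slc12a3, −2.70 for Trpv5 and −2.39 for S100g, though with only 2 knockouts left the adjusted p values were 0.203, 0.171 and 0.149 and 1 gene in all was called.

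**Figure D5:**
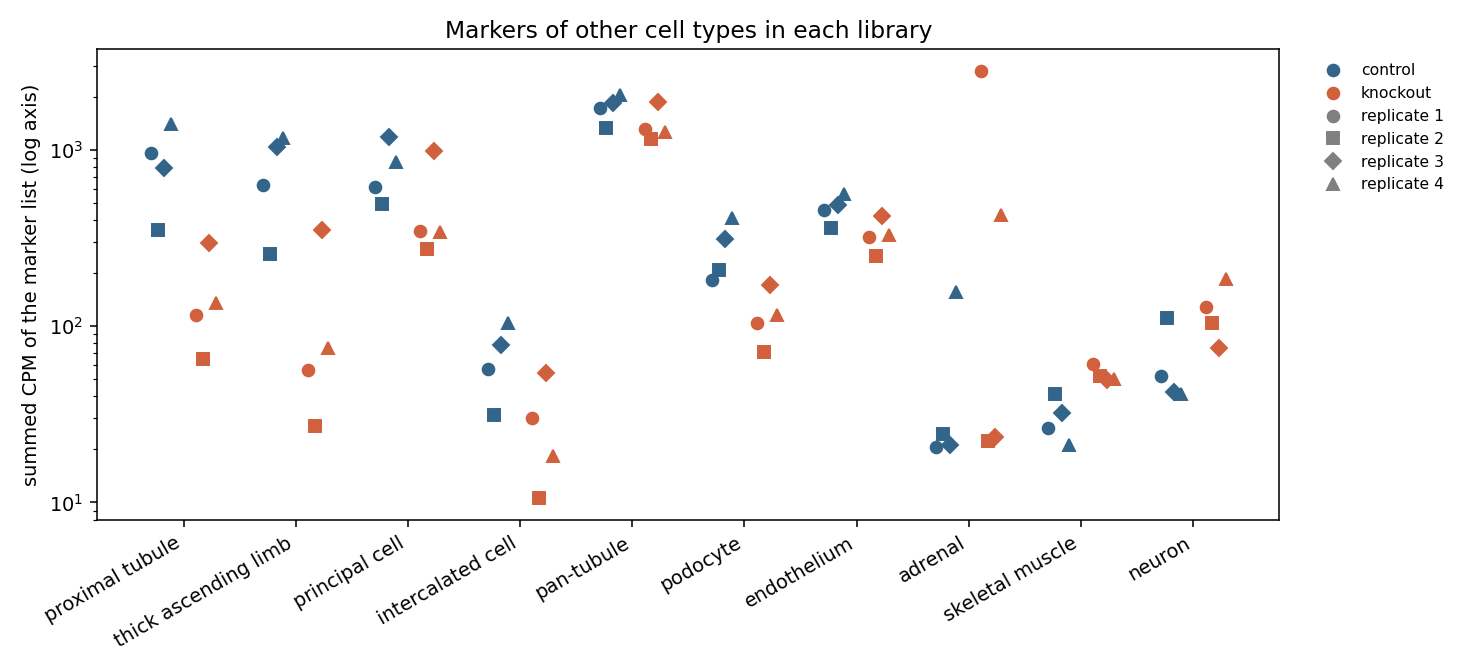
Summed level in CPM (log axis) of marker lists of other cell types in each library, coloured by genotype, with symbols for the replicate number. Proximal tubule markers are lower in every knockout than in every control, while adrenal markers are high in knockout replicates 1 and 4.

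The genes with a profile most like that of Slc12a3 were ranked by the root mean square difference of log2 CPM over the 8 libraries, after each gene's own mean was subtracted, among 14216 genes. The nearest were Mfsd4b3 (0.188), Slc23a1 (0.212), Slc6a13 (0.213), Mfsd4b1 (0.233) and Fabp3 (0.239). Slc23a1 encodes a vitamin C transporter and Slc6a13 a GABA transporter, and Mfsd4b1 and Mfsd4b3 are paralogs whose shared reads are uncertain. Among the members S100g came nearest (0.433, with 65 genes closer), followed by Trpv5 (0.561, with 128 closer) and Kcnj10 (0.808, with 301 closer). Calb1 was farthest (1.76). The nearest genes were the best of 14216 and the members come from a short list. That some genes outside the set came closer therefore says nothing about the members.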

How the data were processed

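The files that the authors deposited give unnormalized whole-number counts for each gene, one table per library and one for the series, and 0 values differed between them. Per the submitters' processing notes, the tools were Trimmomatic 0.36, STAR 2.5.2b, featureCounts of Subread 1.5.2 and DESeq2, with build GRCm38. The annotation release, the strand setting and the handling of reads that match several genes are not given in the sources used here. Gene length is the exon length that the authors deposited. Symbols were matched for 48970 of 49315 IDs, and coordinates are those of the deposited tables.

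Counts were scaled by TMM, filtered with filterByExpr (18485 genes kept) and compared by genotype, without covariates, by quasi-likelihood F tests (edgeR 4.0.16, R 4.3.3). Each standard error is the log2 fold change divided by the square root of F. The test was checked on simulated data in which 200 genes changed 2-fold and all genes had the same spread. The simulation had no library set apart from its group, so it does not cover that feature of these data. Named genes are the 10 members, Kdm1a, up to 3 called genes per direction of each pathway list, and the 5 genes most like Slc12a3 with a mean of at least 1 CPM; Cab39, Cab39l, pathway and marker genes given as not called, and the channel genes set beside a member, were added after their values were seen. A gene that the rule picks is counted in its list but not reported here. The members and lists were chosen with earlier results of these data known. Alternatives were DESeq2 1.42.0, limma 3.58.1 (voom), other scalings, filters, covariates and subsets of libraries. One count equalled 0.0346 to 0.0502 CPM, and no pair of libraries agreed within sampling noise.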

Additional observations from a re-analysis of the deposited data

How the results depend on the processing

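The 5 called members kept their direction in all 20 alternatives, and S100g kept its call in 19, Slc12a3 and Trpv5 in 16 each, Kcnj10 and Klhl3 in 10 each. Trpm6 was called in 0, and Wnk4 and Calb1 were called in 6 and 2. Slc8a1, between −0.11 and 0.14 with single libraries left out, changed sign with limma-voom (−0.12), without control replicate 2 (−0.11) and without control 2 and knockout 3 together (−0.18). Over all genes, 4441 were called with DESeq2, 8302 with limma-voom and sample weights, 821 with the adrenal covariate, 7903 without control 2 and knockout 3, and 1 without knockout 1 and knockout 4. Of the members, 3 were called lower with the Y-linked covariate, 3 with the adrenal covariate and 0 without knockout 1 and knockout 4. Calb1 was the 1 member called higher without control 2 and knockout 3. Among all genes, 1039 of 18485 were called lower with the Y-linked covariate and 389 of 18485 with the adrenal covariate. In libraries with Y-linked transcripts only, 1486 of 18944 were called lower. Without knockout 1 and knockout 4, 0 of 19167 were called lower. Without control 2 and knockout 3, 3791 of 18513 were called higher. Of the 44 genes of the pathway lists, 20 were called lower and 2 higher. The lower count was 13 with the Y-linked covariate, 11 in libraries with Y-linked transcripts only, 5 with the adrenal covariate and 0 without knockout 1 and knockout 4, and the higher count was 0 under both of the last. Kdm1a kept its size and lost its call in libraries with Y-linked transcripts only (−0.28, adjusted p 0.0562), with the adrenal covariate (−0.27, adjusted p 0.0537) and without knockout 1 and knockout 4 (−0.28, adjusted p 0.191). With each library left out in turn, 153 to 7084 genes were called, 1 to 6 members lower and 0 to 1 higher, 1 to 29 pathway genes lower and 0 to 2 higher, and Kdm1a ran from −0.29 to −0.24. Some of these fits also had fewer samples, and the cause of the changes was not tested. The labels do not say whether same-numbered libraries were paired, and the values were mixed. Deviations of same-numbered libraries from their group means correlated at −0.108, 0.329, 0.228 and −0.059. In 1 of 4 pairs each library was the other's best match. With the replicate block 3229 genes were called, 1748 lower and 1481 higher. In that fit 6 members were called lower and 0 higher, 24 pathway genes lower and 2 higher, and Kdm1a stood at −0.27. Counting limits Pvalb, at 1 to 11 counts per library.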
